A study of Mus musculus with 6 samples.

Results

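Transcripts of 35 genes of cholesterol and fatty acid synthesis were compared between mouse bone marrow samples that lack the adaptor GAB2 and samples that carry it. The genes are named genes of the SREBP pathway, of sterol synthesis and of fatty acid synthesis, found by symbol among the 23359 symbols of the deposited expression table. They comprised 5 regulators, 17 sterol enzymes (the sterol arm) and 13 genes that make, modify or activate fatty acids (the fatty acid arm). Each symbol stood on 1 row, and all 35 averaged 1 FPKM or more and entered the test, which covered 9916 genes in all. There were 3 libraries from Gab2 -/- samples (NULL A, B and C) and 3 from Gab2 +/+ samples (WT A, B and C), made from polyadenylated RNA. Values of a group are given in that order of libraries. Levels are FPKM, which scale fragments by transcript length and library size. GAB2 is a scaffold that links cytokine receptors and the BCR-ABL1 oncoprotein to SHP2 and phosphatidylinositol 3-kinase, and the study asks what GAB2 does in transformation by that oncoprotein. The tissue label is bone marrow for both groups. The sources used here do not give the strain, sex, age, any culture or the BCR-ABL1 status of the samples, nor whether libraries came from separate animals. The p-values therefore reflect only how far these samples scatter, which may be technical.

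Cells make cholesterol from acetyl-CoA through mevalonate, isoprenoid pyrophosphates, squalene and lanosterol, and they make fatty acids from the same acetyl-CoA through malonyl-CoA, with later elongation, desaturation and coupling to coenzyme A. Both arms are switched on by the sterol regulatory element-binding proteins (SREBPs), membrane-bound transcription factors. SCAP escorts them to the Golgi for cleavage when sterols are scarce, and INSIG proteins hold them back in the endoplasmic reticulum when sterols are plentiful. Dividing blood cells use both products for new membrane.

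The targeted gene followed the labels. Gab2 (chr7:97081586-97308946, GRCm38) read 0.123, 0.145 and 0.203 FPKM in NULL and 3.33, 3.10 and 2.43 FPKM in WT (log2 change -1.77, SE 0.10, limma adjusted p = 1.83e-05). The libraries held roughly 17000000 to 67600000 fragments, an approximation read from the steps between low FPKM values that supports no counting interval. Markers of the B lineage were high in every library, with summed levels of 4914 to 5060 FPKM in NULL and 3514 to 3821 FPKM in WT over 12 genes. On the deposited scale this sum was higher in NULL without overlap, at 135% of WT. Markers of other marrow cell types were low, although the label is bone marrow. Of the 8 neutrophil markers found 7 stayed under 0.1 FPKM in every library, including Mpo, Elane, S100a8 and S100a9, and the sum of all 8 was 0.0289 to 0.149 FPKM in NULL and 0 to 0.186 FPKM in WT. All 7 adipocyte markers, Adipoq and Plin1 among them, were under 0.1 FPKM in every library, with sums of 0 to 0.00939 FPKM in NULL and 0.0119 to 0.0520 FPKM in WT. Monocyte and macrophage markers summed to 3.67 to 4.998 FPKM in NULL and 1.68 to 2.80 FPKM in WT over 8 genes, erythroid markers to 0.0888 to 0.222 FPKM in NULL and 0.175 to 0.303 FPKM in WT, and mast cell and basophil markers to 0.892 to 2.52 FPKM in NULL and 0 to 0.0400 FPKM in WT. Megakaryocyte and platelet markers summed to 0.373 to 0.734 FPKM in NULL and 0.0219 to 0.138 FPKM in WT, T and NK cell markers to 0.370 to 0.466 FPKM in NULL and 0.0955 to 0.255 FPKM in WT, and stroma and endothelium markers to 0.205 to 0.261 FPKM in NULL and 0.111 to 0.211 FPKM in WT. Sums of monocyte, mast cell, megakaryocyte and T and NK cell markers were thus higher in NULL without overlap, at low levels. The median monocyte and macrophage marker went the other way from its sum, at 0.0888 FPKM in NULL and 0.200 FPKM in WT. The part of these cell types in the results was not tested.

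The enzymes of both arms were mostly lower in the NULL libraries, while the genes for their regulators were not. In the sterol arm 13 of 17 genes fell and 0 rose, with a median log2 change of -0.63. In the fatty acid arm 11 of 13 fell and 1 rose, with a median of -0.71. Of the 5 regulators 2 rose and 0 fell, with a median of 0.086. A call is a limma adjusted p under 0.05, adjusted over all 9916 genes. Calls were common in these data, at 65.3% of all genes tested, with 42.0% lower and 23.3% higher in NULL, and the median log2 change of all genes was -0.13. Summed over its 17 genes the sterol arm held 477, 453 and 489.5 FPKM in NULL and 830.3, 798 and 825 FPKM in WT, which put NULL at 57.9% of WT. The 13 genes of the fatty acid arm summed to 398, 378 and 391 FPKM in NULL and 662, 650.1 and 793 FPKM in WT, or 55.5% of WT. Both shares hold for the deposited scale only. Over all symbols the libraries summed to 420144, 387827 and 314192 FPKM in NULL and 377374, 419286 and 581658 FPKM in WT. In bulk RNA, fewer cells of a type and less RNA per cell cannot be told apart.

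**Figure D1:**
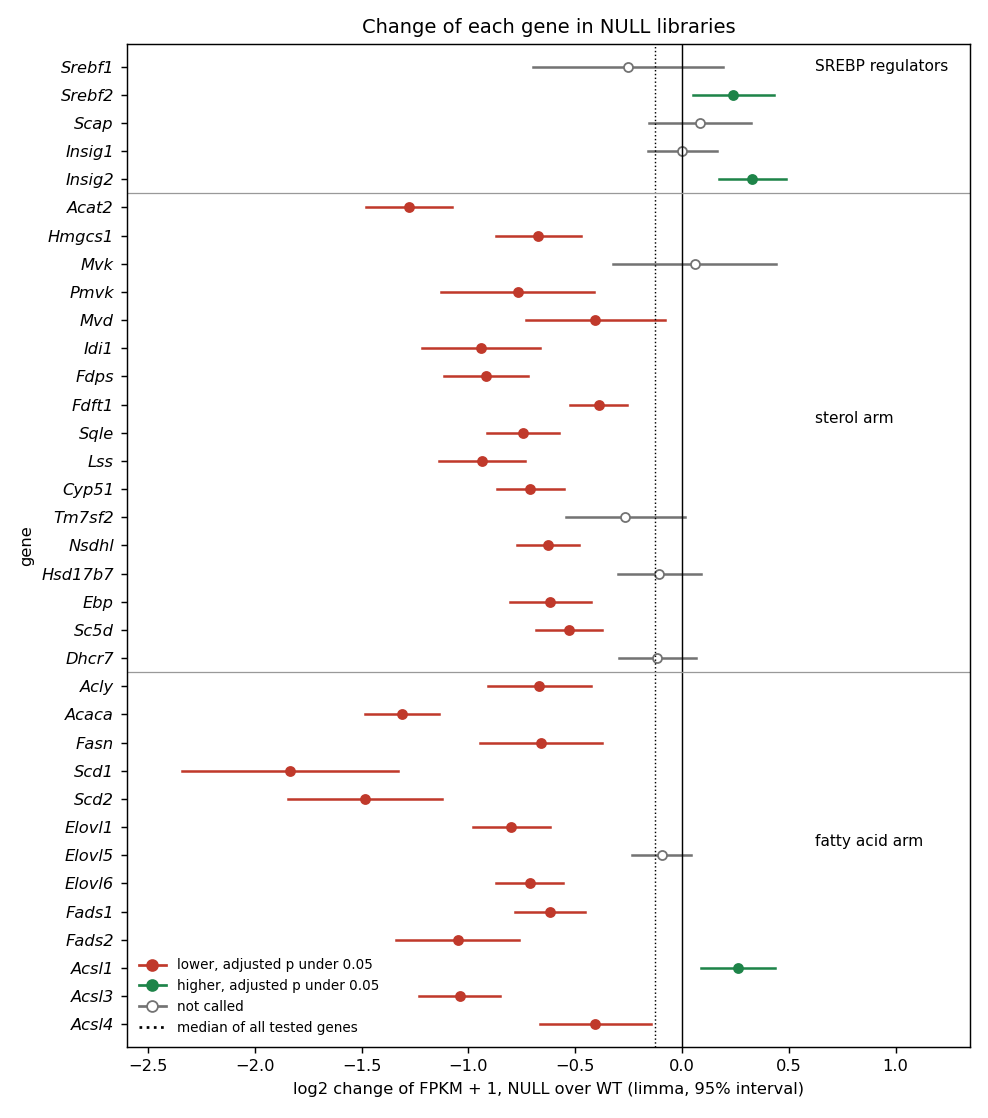
Points show the log2 change of FPKM + 1 in NULL over WT for each of the 35 genes with its 95% interval from limma, filled where the adjusted p was under 0.05. The dotted line marks the median of all tested genes at -0.13. Sterol and fatty acid genes lie mostly left of it, and the 5 regulators lie between -0.25 and 0.33.

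Genes of cell division moved with both arms. All 20 proliferation genes fell (median log2 change -1.08), where 42.0% of all genes fell. Their summed levels were 1308, 958 and 1277 FPKM in NULL and 2426, 2421 and 2444 FPKM in WT. Under the rescalings described further on, 20 were called lower with median-of-ratios factors and 19 after quantile normalization. Under a common total 15 were, and 19 when it left small RNA genes out. The medians were -0.93, -0.66, -0.81 and -0.71 in that order. The part of proliferation or of cell composition in the changes of lipid genes was not tested.

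Srebf2 encodes the factor that mainly drives sterol genes. It read 23.6, 20.3 and 20.2 FPKM in NULL and 16.9, 17.8 and 19.0 FPKM in WT. The groups did not overlap, and Srebf2 rose (log2 change 0.24, SE 0.082, limma adjusted p = 0.0322). That call was lost without NULL A, WT A or WT B (limma adjusted p up to 0.107). Rescaling to a common total (limma adjusted p = 0.126) and testing with no expression filter also lost it. Insig2, one of the INSIG retention proteins, rose as well, at 4.07, 4.01 and 3.88 FPKM in NULL and 2.80, 3.002 and 3.12 FPKM in WT (log2 change 0.33, SE 0.067, limma adjusted p = 0.00342). It was the only regulator called under each of the 4 rescalings described further on.

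Insig1, itself a classical SREBP target, differed between groups by less than the spread within them. It read 51.1, 55.9 and 51.2 FPKM in NULL and 52.7, 50.2 and 55.1 FPKM in WT, with a log2 change of 0.00061 and a 95% interval of -0.16 to 0.16. Under quantile normalization and under a common total computed with small RNA genes left out the change was 0.40 and 0.38 and was called. Scap, the escort protein gene, read 28.4, 23.5 and 23.5 FPKM in NULL and 21.3, 23.5 and 26.0 FPKM in WT, and the groups overlapped (log2 change 0.086, interval -0.15 to 0.32). Under the same rescalings as Insig1 it was called higher, with changes of 0.24 to 0.45 over all 4 rescalings. Srebf1, whose SREBP-1c product mainly drives fatty acid genes, read 9.24, 7.42 and 7.27 FPKM in NULL and 7.79, 8.37 and 13.6 FPKM in WT. These groups overlapped too, and the change of -0.25 was not called (limma adjusted p = 0.277). Without WT C it was -0.023. Gene-level values do not separate the SREBP-1a and SREBP-1c transcripts.

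The mevalonate steps fell in 6 of 7 genes, with a median log2 change of -0.77, where 42.0% of all genes fell. With median-of-ratios factors 5 of them were called lower, and 4 after quantile normalization. Under a common total 3 were called lower. With small RNA genes left out of that total, 4 were called lower and 1 higher. Acat2, an acetoacetyl-CoA thiolase that joins acetyl-CoA units at the start of the pathway, read 23.8, 19.8 and 23.0 FPKM in NULL and 55.6, 51.8 and 57.9 FPKM in WT. Its log2 change of -1.28 (SE 0.086, limma adjusted p = 2.72e-05) was the most negative of the sterol arm. The reads of Acat2 cannot be assigned with certainty, since 40.6% of the 50-base stretches of its annotated transcripts also occur in Acat3. Acat3 gave similar values, at 28.5, 24.4 and 27.3 FPKM in NULL and 59.9, 54.2 and 59.6 FPKM in WT. Hmgcs1, the synthase that makes HMG-CoA, read 63.1, 66.0 and 70.9 FPKM in NULL and 117, 107 and 97.9 FPKM in WT (log2 change -0.67, SE 0.086, limma adjusted p = 0.000309), so every NULL library lay below every WT library. Under 3 of the 4 rescalings Hmgcs1 was not called, with changes of -0.52 to -0.20 over all 4.

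The kinases and the decarboxylase that follow were less even. Mvk, mevalonate kinase, read 7.79, 5.32 and 5.81 FPKM in NULL and 4.69, 6.22 and 7.16 FPKM in WT. Its groups overlapped, and the change of 0.059 (95% interval -0.32 to 0.44) was not called. Pmvk, the kinase acting next, read 17.5, 15.3 and 15.6 FPKM in NULL and 23.3, 26.1 and 36.6 FPKM in WT, with WT C the highest, and fell by 0.77 on the log2 scale (limma adjusted p = 0.00298). Mvd, the decarboxylase that yields isopentenyl pyrophosphate, read 11.6, 10.1 and 10.3 FPKM in NULL and 12.1, 13.6 and 18.2 FPKM in WT. Its call (log2 change -0.41, limma adjusted p = 0.0331) was lost under all 4 rescalings and without NULL B, NULL C or WT B (limma adjusted p up to 0.0966). Without WT C the change of Mvd was -0.25 (limma adjusted p = 0.0412).

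Next come the enzymes that build isoprenoid pyrophosphates. Idi1, the isomerase of isopentenyl pyrophosphate, read 53.0, 56.3 and 63.6 FPKM in NULL and 129, 112 and 95.8 FPKM in WT (log2 change -0.94, SE 0.12, limma adjusted p = 0.000298). Fdps, which builds farnesyl pyrophosphate, had the highest level per length of all 35 genes in both groups. It read 121, 106 and 119 FPKM in NULL and 208, 214 and 233 FPKM in WT (log2 change -0.92, SE 0.084, limma adjusted p = 7.48e-05). The predicted gene Gm43738 shares 26.7% of the exon bases of Fdps on the same strand. Every NULL library lay well below every WT library for both enzymes.

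From squalene to cholesterol 7 of 10 genes fell, with a median of -0.57, where 42.0% of all genes fell. With median-of-ratios factors and after quantile normalization 7 were called lower. Under a common total 1 was, and 5 when it left small RNA genes out. Fdft1, squalene synthase, read 24.4, 23.5 and 24.8 FPKM in NULL and 32.4, 31.5 and 32.4 FPKM in WT, a small decrease (log2 change -0.39, SE 0.057, limma adjusted p = 0.000614). Under 3 of the 4 rescalings Fdft1 was not called, with changes of -0.24 to -0.022 over all 4. Fdft1 shares 18.3% of its exon bases with Ctsb on the opposite strand, and Ctsb was higher in NULL (65.6 ± 3.65 FPKM in NULL and 18.5 ± 1.31 FPKM in WT, SD, n = 3 each). The sources used here do not say whether the counting used strand. Sqle, the epoxidase of a rate-limiting step, read 32.2, 29.5 and 32.7 FPKM in NULL and 56.6, 50.8 and 52.9 FPKM in WT (log2 change -0.75, SE 0.072, limma adjusted p = 8.82e-05). Lss, which cyclizes the epoxide to lanosterol, read 15.0, 13.3 and 13.8 FPKM in NULL and 26.7, 25.9 and 31.1 FPKM in WT (log2 change -0.94, SE 0.086). The lanosterol demethylase Cyp51 read 36.7, 36.3 and 40.5 FPKM in NULL and 64.1, 61.3 and 62.2 FPKM in WT (log2 change -0.71, SE 0.067). For these last 3 enzymes the groups were far apart relative to the spread within either.

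Among the later steps, Nsdhl, a sterol dehydrogenase, read 14.1, 14.6 and 14.1 FPKM in NULL and 23.6, 22.7 and 21.5 FPKM in WT. Ebp, the sterol isomerase, read 16.3, 14.0 and 13.8 FPKM in NULL and 21.8, 23.4 and 24.0 FPKM in WT. Sc5d, the C5 desaturase, read 21.7, 23.1 and 23.3 FPKM in NULL and 34.5, 31.2 and 33.8 FPKM in WT. These genes fell by 0.63, 0.62 and 0.53 on the log2 scale, with limma adjusted p-values of 9.32e-05, 0.000369 and 0.000292. For each of them all NULL libraries lay below all WT libraries. The sterol reductase Tm7sf2 was weakly expressed, at 1.53, 2.09 and 1.36 FPKM in NULL and 2.24, 1.90 and 2.41 FPKM in WT, and its change of -0.27 was not called (limma adjusted p = 0.0833) but was without NULL B (-0.38). Hsd17b7, a 3-ketosteroid reductase, read 8.32, 8.59 and 8.84 FPKM in NULL and 10.2, 9.56 and 8.24 FPKM in WT, with a change of -0.11 and a 95% interval of -0.30 to 0.090. The final reductase Dhcr7 read 7.98, 9.56 and 8.24 FPKM in NULL and 9.13, 9.44 and 9.54 FPKM in WT, with a change of -0.12 and an interval of -0.30 to 0.064. The sterol genes that were not called, Mvk, Tm7sf2, Hsd17b7 and Dhcr7, were also the weakest of the arm in WT.

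**Figure D2:**
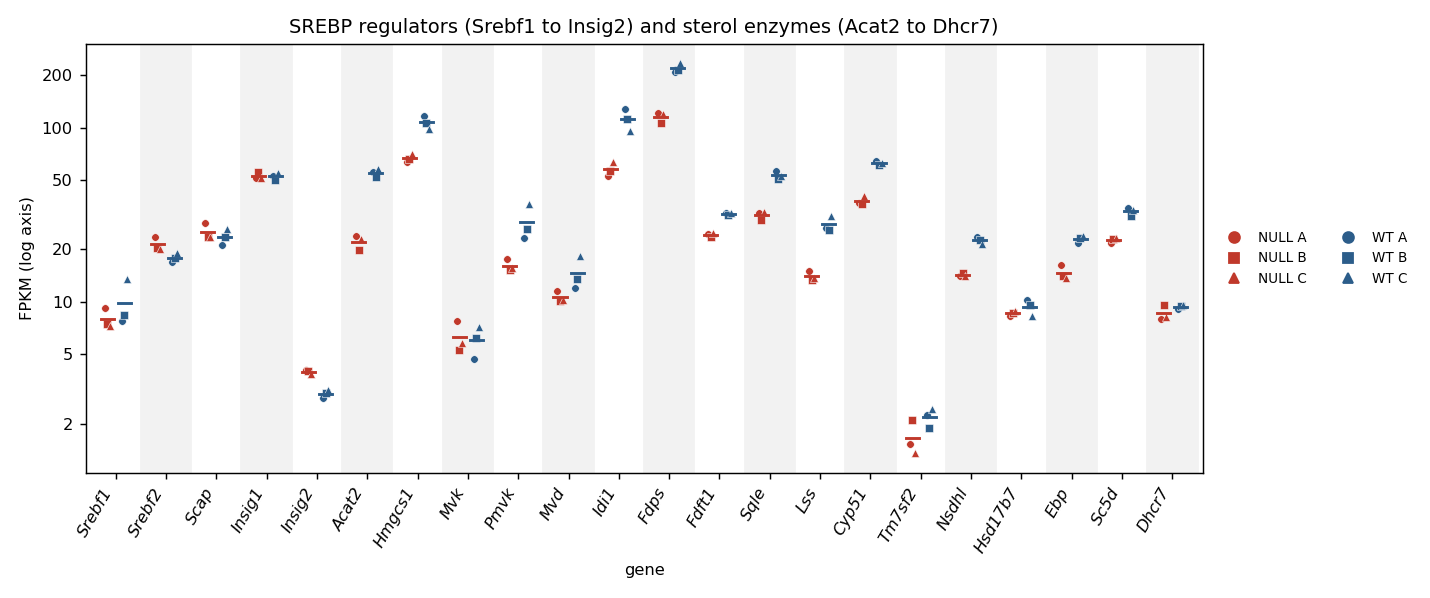
FPKM on a log axis for the 5 regulators and the 17 sterol enzymes, with NULL libraries left of WT libraries for each gene, symbols for libraries A, B and C, and bars at the group means. NULL and WT do not overlap for the 13 called sterol genes, while Insig1 reads 50.2 to 55.9 FPKM over all 6 libraries.

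Promoters of some of the 35 genes are shown. RefSeq on GRCm38.p6 lists a promoter, 250 bases before to 50 after the start, for 29 of the 35 genes. Sterol gene promoters are known to pair a sterol regulatory element with a CCAAT box, the site of the factor NF-Y. On either strand, CCAAT occurred in a listed promoter of 13 of 14 sterol genes, 6 of 10 fatty acid genes and 4 of 5 regulators, against 41.1% of all 27025 genes and 44.4% of 7408 tested genes. Among genes with 1 listed promoter it was 11 of 12 sterol genes against 38.2%. Acat2, with the most negative change of the sterol arm, had a listed promoter but no CCAAT. The uncalled sterol genes Mvk, Tm7sf2, Hsd17b7 and Dhcr7 all held it. In the fatty acid arm the lower genes Acly, Fasn, Elovl1 and Acsl3 held it, as did uncalled Elovl5 and higher Acsl1. The lower genes Acaca, Fads2, Elovl6 and Acsl4 lacked it. The element TCACNCCAC was found for Hmgcs1 and Acsl1, against 1.44% of all genes, and the E-box CACGTG for 3 of 14 sterol genes, 1 of 10 fatty acid genes and 2 of 5 regulators (Scap and Insig1), against 8.09% of all genes and 12.6% of tested genes. A match describes letters and is not a binding site, and no match says only that these letters are not in the window. The 150 bases before the RefSeq start are given 5′ to 3′ on the gene's strand. They come from sterol genes that fell (Hmgcs1, Idi1, Cyp51, Lss) and from the uncalled sterol gene Mvk. Others come from Fasn of the fatty acid arm and from the regulators Insig1 and Srebf2. In GENCODE the genes Idi1, Cyp51, Lss, Insig1 and Srebf2 begin inside these windows. Idi1 begins before both of its CCAAT matches, and Cyp51 begins before its CCAAT match. Capitals mark CCAAT or its reverse complement ATTGG, the element TCACNCCAC and CACGTG. Coordinates on GRCm38.p6 are chr13:119690201-119690350 (Hmgcs1, plus strand), chr13:8885456-8885605 (Idi1, plus strand), chr5:4104698-4104847 (Cyp51, minus strand), chr10:76531455-76531604 (Lss, plus strand), chr5:114444119-114444268 (Mvk, plus strand), chr11:120824548-120824697 (Fasn, minus strand), chr5:28071262-28071411 (Insig1, plus strand) and chr15:82147119-82147268 (Srebf2, plus strand).
Hmgcs1: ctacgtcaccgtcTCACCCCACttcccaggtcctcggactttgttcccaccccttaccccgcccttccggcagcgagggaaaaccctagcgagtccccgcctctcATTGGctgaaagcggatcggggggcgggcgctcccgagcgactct
Idi1: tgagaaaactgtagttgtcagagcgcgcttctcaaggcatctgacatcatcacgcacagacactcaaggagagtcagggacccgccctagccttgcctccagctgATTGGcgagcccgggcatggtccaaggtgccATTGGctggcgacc
Cyp51: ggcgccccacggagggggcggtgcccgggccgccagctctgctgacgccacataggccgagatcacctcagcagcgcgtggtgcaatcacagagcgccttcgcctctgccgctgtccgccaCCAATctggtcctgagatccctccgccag
Lss: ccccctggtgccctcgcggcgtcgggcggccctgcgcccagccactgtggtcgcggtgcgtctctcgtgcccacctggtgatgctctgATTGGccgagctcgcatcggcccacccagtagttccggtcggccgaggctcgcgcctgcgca
Mvk: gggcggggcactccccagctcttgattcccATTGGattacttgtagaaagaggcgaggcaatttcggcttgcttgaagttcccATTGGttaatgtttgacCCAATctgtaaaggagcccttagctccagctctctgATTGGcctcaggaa
Fasn: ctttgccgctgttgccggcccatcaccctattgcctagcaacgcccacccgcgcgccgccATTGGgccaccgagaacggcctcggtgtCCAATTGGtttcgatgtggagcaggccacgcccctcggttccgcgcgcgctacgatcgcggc
Insig1: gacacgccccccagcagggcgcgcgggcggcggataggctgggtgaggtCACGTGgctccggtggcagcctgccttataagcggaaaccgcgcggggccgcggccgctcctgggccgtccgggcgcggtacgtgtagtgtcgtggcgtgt
Srebf2: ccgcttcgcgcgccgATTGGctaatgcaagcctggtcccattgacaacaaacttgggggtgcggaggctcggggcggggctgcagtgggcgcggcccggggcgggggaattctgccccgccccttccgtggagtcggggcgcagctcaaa
Within these windows Mvk, which was not called, held 4 CCAAT matches, Fasn 3, of which 2 overlap, and Idi1 2. Hmgcs1, Cyp51, Lss and Srebf2 held 1 each. Hmgcs1 also held the element TCACNCCAC, and Insig1 held CACGTG.

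The core of fatty acid synthesis fell in 3 of 3 genes, where 42.0% of all genes fell. With median-of-ratios factors 3 were called lower, and 2 after quantile normalization. Under a common total 1 was, and 3 when it left small RNA genes out. Acly, which releases cytosolic acetyl-CoA from citrate and so feeds both arms, read 72.0, 64.6 and 68.8 FPKM in NULL and 99.1, 104 and 127 FPKM in WT (log2 change -0.67, SE 0.10, limma adjusted p = 0.000843). Acaca, the acetyl-CoA carboxylase that makes malonyl-CoA, read 15.7, 14.2 and 16.8 FPKM in NULL and 41.4, 38.5 and 40.0 FPKM in WT. It fell by 1.31 on the log2 scale (SE 0.075, limma adjusted p = 1.72e-05), to 38.9% of the WT mean. The fatty acid synthase gene Fasn read 32.9, 25.2 and 25.7 FPKM in NULL and 40.1, 43.4 and 50.1 FPKM in WT (log2 change -0.66, SE 0.12, limma adjusted p = 0.00210). All NULL libraries lay below all WT libraries for each of these genes. The level of Acaca relative to Fasn was 0.565 ± 0.0878 in NULL and 0.906 ± 0.117 in WT (SD, n = 3 each).

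Scd1 and Scd2 had the most negative changes of the 35 genes. Scd1 (chr19:44394455-44407879) and Scd2 (chr19:44293674-44306864) (both GRCm38) encode stearoyl-CoA desaturases, which place the double bond that makes oleate and palmitoleate. Scd1 read 21.9, 23.5 and 21.9 FPKM in NULL and 69.1, 66.1 and 123 FPKM in WT (log2 change -1.83, SE 0.22, limma adjusted p = 0.000211). WT C stood apart at 1.82 times the mean of WT A and B, and without it the change was -1.55 (limma adjusted p = 2.83e-05). Scd2 read 32.7, 33.1 and 28.5 FPKM in NULL and 77.8, 79.3 and 116 FPKM in WT (log2 change -1.48, SE 0.15), with a change of -1.30 without WT C. NULL held 26.1% of the WT mean of Scd1 and 34.5% of that of Scd2. The pair share few sequences, since 2.995% of the 50-base stretches of Scd1 transcripts occur in Scd2. Their relatives Scd3 and Scd4 read at most 0.935 FPKM in any library.

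Both desaturases of polyunsaturated fatty acids fell. Fads1, the delta-5 desaturase, read 13.3, 12.1 and 13.2 FPKM in NULL and 19.4, 19.9 and 21.7 FPKM in WT (log2 change -0.62, SE 0.070). Fads2, the delta-6 desaturase, read 23.3, 19.9 and 22.8 FPKM in NULL and 42.5, 41.9 and 56.3 FPKM in WT (log2 change -1.05, SE 0.12, limma adjusted p = 0.000212). Elongases, which extend the chain, split. Elovl6, which acts on saturated chains, read 70.9, 69.5 and 73.7 FPKM in NULL and 124, 115 and 115 FPKM in WT. Elovl1, which makes very long chains, read 16.97, 14.8 and 15.4 FPKM in NULL and 27.8, 26.4 and 30.1 FPKM in WT. Both fell, by 0.71 and 0.80 on the log2 scale. Elovl5, which extends polyunsaturated chains, read 48.3, 46.6 and 49.0 FPKM in NULL and 52.4, 50.8 and 50.7 FPKM in WT. The groups did not overlap, but the change was -0.096 with a 95% interval of -0.23 to 0.040 and was not called. It turned positive under all 4 rescalings (0.059 to 0.30), with a call as higher under 2 of them.

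The acyl-CoA synthetases, which activate free fatty acids, moved in both directions. Acsl3 read 10.0, 10.6 and 10.6 FPKM in NULL and 22.7, 20.2 and 24.7 FPKM in WT (log2 change -1.04, SE 0.081, limma adjusted p = 4.29e-05). Utp14b shares 5.60% of the exon bases of Acsl3 on the same strand and fell too (log2 change -0.60). Acsl4, which prefers arachidonate, read 12.0, 14.8 and 15.4 FPKM in NULL and 20.3, 19.7 and 16.7 FPKM in WT. Its decrease (log2 change -0.41, limma adjusted p = 0.0131) lost its call under each of the 4 rescalings. Acsl1 was the only gene of the arm to rise, at 28.7, 29.3 and 29.3 FPKM in NULL and 24.9, 25.7 and 21.8 FPKM in WT (log2 change 0.26, SE 0.074, limma adjusted p = 0.0150), and that call was lost under a common total. The level of Acsl1 relative to Acsl3 was 2.79 ± 0.0603 in NULL and 1.08 ± 0.192 in WT (SD, n = 3 each).

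**Figure D3:**
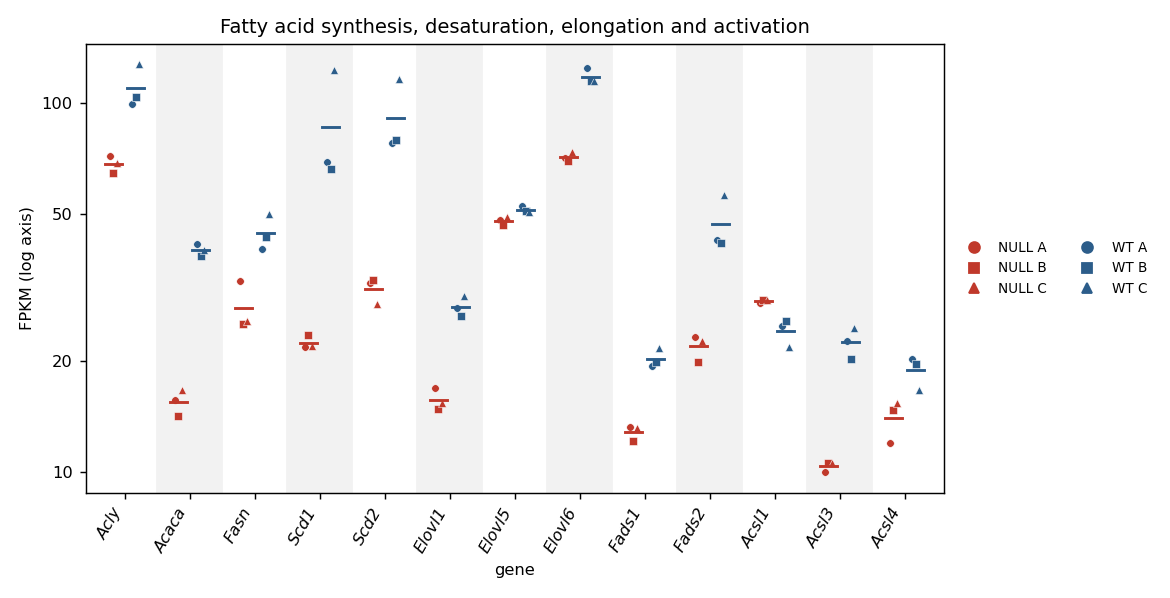
FPKM on a log axis for the 13 genes of the fatty acid arm, with NULL libraries left of WT libraries for each gene and bars at the group means. WT C stands above WT A and B for Scd1, Scd2 and Fads2, and Acsl1 is the only gene here with every NULL library above every WT library.

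Counts were read against the same counts over all genes. Every NULL library lay below every WT library for 13 of 17 sterol genes and 12 of 13 fatty acid genes, where 45.1% of all genes did so. A called decrease of at least 0.5 on the log2 scale was found for 11 of 17 sterol genes and 10 of 13 fatty acid genes, against 24.8% of all genes. A called decrease of at least 1 was found for Acat2 in the sterol arm and for Acaca, Scd1, Scd2, Fads2 and Acsl3 in the fatty acid arm, against 5.99% of all genes. For 2 of the 5 regulators every NULL library lay above every WT library, where 26.0% of all genes did so, a share that 5 genes are too few to be set against.

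The medians of both arms stayed negative under other scalings between libraries, but calls were lost. The median log2 change of all genes was 0.0098 after median-of-ratios rescaling, -0.030 after quantile normalization, 0.11 after rescaling to a common total and 0.20 after the same with small RNA genes left out. In that order the number of sterol genes called lower was 12, 11, 4 and 9, with 1 called higher (Mvk) in the last. The number of fatty acid genes called lower was 10, 9, 5 and 10, and the number called higher 1, 2, 0 and 2. Lower genes made up 64.3% of all calls on the deposited scale and 50.78, 53.72, 33.15 and 31.35% after the rescalings. Relative to all genes, the median of the sterol arm was -0.50 on the deposited scale and between -0.49 and -0.36 after rescaling, that of the fatty acid arm -0.59 and between -0.57 and -0.39, and that of the regulators 0.21 and between 0.23 and 0.38. All 24 genes called lower had negative changes under all 4 rescalings. Among them 9 were called lower under each, namely Acat2, Idi1, Fdps, Lss in the sterol arm and Acaca, Scd1, Scd2, Fads2, Acsl3 in the fatty acid arm. Mvd and Acsl4 lost their call under all 4, Hmgcs1 and Fdft1 under 3, Sc5d and Acly under 2, and the remaining 9 under 1.

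**Figure D4:**
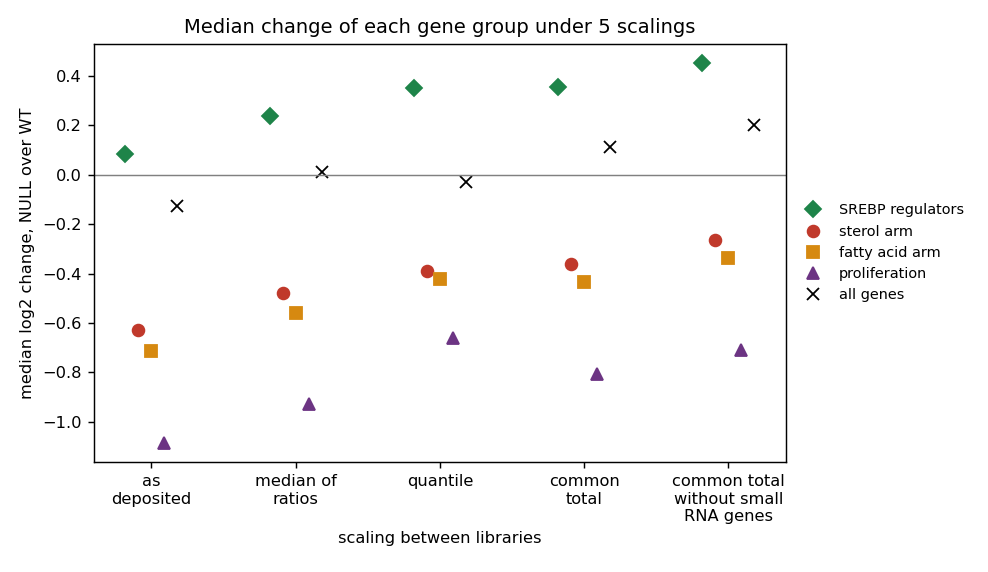
Median log2 change in NULL over WT for the regulators, both arms, the proliferation genes and all tested genes, with the FPKM as deposited and after 4 rescalings. Medians shift with the scaling, and under each of them both arms lie below all genes (-0.71 to -0.27 against -0.13 to 0.20) and the regulators above them.

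Library WT C differed from WT A and B in an uneven way across these genes. It was highest of all 6 libraries for 16 of the 35, a count that was not set against all genes. WT C also had the largest FPKM sum over all symbols, at 581658 FPKM. Relative to the mean of WT A and B it read 1.82 times for Scd1, 1.68 times for Srebf1, 1.48 times for Pmvk and 1.48 times for Scd2, but 0.797 times for Idi1 and 0.877 times for Hmgcs1. Small RNA genes held 31.5% of summed FPKM in WT C, 6.06% in WT A and 13.4% in WT B. They held 29.1%, 30.1% and 8.67% in NULL A, B and C, and their part in the pattern of WT C was not tested. Without WT C the sterol arm had 14 and the fatty acid arm 11 genes called lower, the addition being Hsd17b7 (log2 change -0.18, limma adjusted p = 0.0494).

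**Figure D5:**
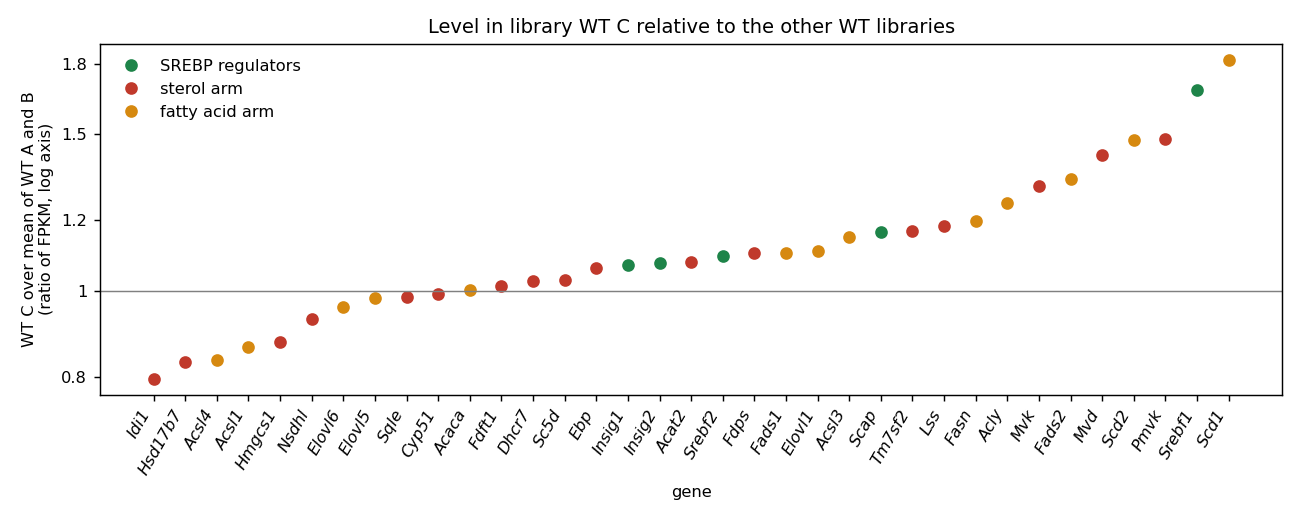
FPKM in WT C divided by the mean FPKM of WT A and B, on a log axis, for each of the 35 genes in order of the ratio and coloured by group. Values run from 0.797 for Idi1 to 1.82 for Scd1, with Srebf1 next to the top.

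Further genes of the pathway were taken from lists by function. Of 9 genes for cleavage and turnover of the SREBPs, 1 rose and 3 fell, with a median of -0.094, where 23.3% of all genes rose and 42.0% fell. The counts were 2 higher and 2 lower with median-of-ratios factors, 1 higher and 2 lower after quantile normalization, 0 higher and 0 lower under a common total and 5 higher and 1 lower (median 0.26) under a common total that leaves small RNA genes out. Mbtps1, the site-1 protease, rose by 0.17 on the log2 scale, to 20.5 ± 0.574 FPKM in NULL, against 18.1 ± 0.663 FPKM in WT (SD, n = 3 each), a call lost whenever 1 library was left out. Mbtps2, the site-2 protease, fell to 2.44 ± 0.354 FPKM in NULL, against 3.68 ± 0.103 FPKM in WT. Erlin1, an endoplasmic reticulum protein that restrains SREBPs, fell to 3.90 ± 0.231 FPKM in NULL, against 6.66 ± 0.437 FPKM in WT. Ufd1l, of the machinery that extracts proteins for degradation, fell by 0.22, a call lost under all 4 rescalings.

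The isoprenoid branch takes farnesyl pyrophosphate into ubiquinone, dolichol and prenylated proteins. In it 12 of 15 genes fell and 0 rose, with a median of -0.34, where 42.0% of all genes fell. The branch had 0 higher and 8 lower with median-of-ratios factors, 0 higher and 11 lower after quantile normalization, 0 higher and 3 lower under a common total and 2 higher and 4 lower (median -0.013) under a common total that leaves small RNA genes out. Pdss1, which makes the ubiquinone side chain, fell to 3.12 ± 0.510 FPKM in NULL, against 9.98 ± 0.730 FPKM in WT (log2 change -1.42). Rabggtb, a Rab prenyltransferase subunit, Coq2 of ubiquinone synthesis and Nus1 of dolichol synthesis fell by 0.98, 0.87 and 0.70, and the CAAX protease gene Rce1 by 0.39.

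Among the genes of sterol storage, trafficking and efflux, 11 were tested, of 15 listed. Of these 3 rose and 1 fell, with a median of 0.096, a share of higher genes near the 23.3% of all genes. The counts became 6 higher and 1 lower with median-of-ratios factors, 6 higher and 1 lower after quantile normalization, 3 higher and 0 lower under a common total and 9 higher and 1 lower (median 0.45) under a common total that leaves small RNA genes out. Nr1h2, which encodes the sterol sensor LXR beta, read 9.81, 8.19 and 7.32 FPKM in NULL and 4.04, 4.64 and 5.28 FPKM in WT (log2 change 0.74, SE 0.12, limma adjusted p = 0.00100). Mylip, whose product marks lipoprotein receptors for degradation, read 9.28, 8.65 and 9.42 FPKM in NULL and 4.12, 4.28 and 5.10 FPKM in WT (log2 change 0.88, SE 0.084). Stard3, a sterol carrier of late endosomes, rose by 0.35. The lipoprotein receptor gene Scarb1 fell to 14.3 ± 0.971 FPKM in NULL, against 21.6 ± 2.18 FPKM in WT (SD, n = 3 each).

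In the list of lipogenic supply and further elongation 8 of 13 tested genes, of 22 listed, fell and 1 rose, with a median of -0.36, where 42.0% of all genes fell. This list had 2 higher and 6 lower with median-of-ratios factors, 2 higher and 7 lower after quantile normalization, 2 higher and 2 lower under a common total and 3 higher and 4 lower (median 0.014) under a common total that leaves small RNA genes out. Hsd17b12, the ketoreductase of the elongation cycle, read 20.7, 21.9 and 23.0 FPKM in NULL and 48.7, 45.5 and 43.9 FPKM in WT (log2 change -1.04, SE 0.069, limma adjusted p = 2.66e-05). The dehydratase genes Ptpla and Ptplad1 of the same cycle fell by 1.199 and 0.63, and the synthetase gene Acsl5 by 0.92. Elovl4, an elongase of very long chains, rose to 1.99 ± 0.150 FPKM in NULL, against 0.435 ± 0.233 FPKM in WT. Of the genes named from these lists, Mylip, Nr1h2, Stard3, Pdss1, Rabggtb, Coq2, Ptpla, Elovl4 and Hsd17b12 kept their call under all 4 rescalings, and the others lost it under at least 1.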

How the data were processed

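Per the labels' protocols, stranded libraries from polyadenylated RNA were pooled for paired-end sequencing. The authors deposited FPKM for each library. The submitters' processing notes name Bowtie, Cufflinks, mm10 and GRCm38, without versions or roles. The sources used here do not give annotation, filters, scaling between libraries or use of strand.

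The table of the whole series (23848 rows) differed from the library tables in 0 values. For 256 repeated symbols only the row of highest mean level was used. FPKM are not counts, so limma 3.58.1 in R 4.3.3 was run on log2(FPKM + 1), keeping genes that averaged 1 FPKM or more over 6 libraries, with empirical Bayes and a trend, two-sided tests and Benjamini-Hochberg adjustment (threshold 0.05). Changes on this scale understate those of weak genes. The fit was also run on simulated data with few changed genes and no scaling difference between libraries. That run cannot speak to calls that depend on the scaling. The members and lists were chosen with earlier results of these data known. All 35 members are named, and of each further list up to 5 called genes with the most extreme change, apart from 1 that is not reported here. Of 226 list genes, 5 were found by an older symbol and 2 were not found. Gene positions, transcripts and overlaps come from GENCODE on GRCm38, and promoters from RefSeq. Depth was approximated from steps among values under 0.5 FPKM. Alternatives covered pseudocounts, filters, 4 rescalings, variance models, a replicate block, a stricter threshold and leaving out each library.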

Additional observations from a re-analysis of the deposited data

How the results depend on the processing

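Of the 24 lower members 23 kept their call without any single library, the exception being Mvd. Leaving out each library gave 12 to 14 called sterol genes, 12 called fatty acid genes throughout, 1 to 2 regulators, 64 to 74 genes of the other lists and 5843 to 6450 of all genes (2018 to 2378 higher, 3756 to 4072 lower). Medians then ran from -0.64 to -0.59 (sterol), -0.78 to -0.70 (fatty acid) and 0.016 to 0.16 (regulators), and the Gab2 log2 change from -1.87 to -1.70. Rescaling to a common total called 3026 of all genes (1003 lower), 4 sterol genes, 5 fatty acid genes, 1 regulator and 39 genes of the other lists, against 73 of these on the deposited scale. The same with small RNA genes left out called 4480 higher, 2046 lower and 4 regulators, and quantile normalization also called 4 regulators. A minimum of 5 FPKM left 1364 higher genes and 1 regulator, and 1 regulator was called with no filter and at a threshold of 0.01. After median-of-ratios, quantile, common total and common total with small RNA genes left out the medians were -0.48, -0.39, -0.36 and -0.27 (sterol), -0.56, -0.42, -0.44 and -0.34 (fatty acid) and 0.24, 0.35, 0.36 and 0.45 (regulators). Elovl5 turned to 0.30 and 0.28 under quantile normalization and under a common total with small RNA genes left out. The cause was not tested. Deviations of libraries with the same letter correlated at 0.0735, 0.355 and 0.133 for A, B and C. The labels do not say whether a letter marks a shared batch, and the main fit did not take letters as pairs. A replicate block on the letter called 13 sterol genes, 12 fatty acid genes and 1 regulator (Insig2, not Srebf2). The unknown exact depth allows no counting interval for weak genes.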

Other observations

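Neighbouring branches of lipid metabolism were also measured. Genes of glycerolipid synthesis, which join fatty acids to glycerol, rose in 7 and fell in 5 of 18 tested cases, with a median log2 change of 0.048, where 23.3% of all genes rose and 42.0% fell. The list had 9 higher and 4 lower with median-of-ratios factors, 7 higher and 5 lower after quantile normalization, 6 higher and 3 lower under a common total and 10 higher and 3 lower (median 0.39) under a common total that leaves small RNA genes out. Gpam, the mitochondrial acyltransferase that starts the pathway, read 29.6, 30.5 and 29.8 FPKM in NULL and 16.8, 18.9 and 13.3 FPKM in WT (log2 change 0.85, SE 0.12, limma adjusted p = 0.000430). Agpat4, an acyltransferase of the next step, read 5.27, 4.80 and 4.31 FPKM in NULL and 1.46, 1.85 and 1.96 FPKM in WT. Agpat5 of the same family read 7.09, 7.44 and 7.56 FPKM in NULL and 16.3, 15.7 and 17.2 FPKM in WT. These changed in opposite directions, by 1.07 and -1.05. Agpat2 fell by 1.05 and the phosphatidate phosphatase gene Lpin1 rose by 0.68.

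Genes of fatty acid oxidation rose in 3 and fell in 9 of 18 tested cases, with a median of -0.30, shares near those of all genes (23.3% higher and 42.0% lower). The trifunctional protein subunit gene Hadhb read 20.4, 16.8 and 21.0 FPKM in NULL and 41.0, 41.8 and 40.1 FPKM in WT (log2 change -1.05, SE 0.089, limma adjusted p = 5.65e-05). Decr1, Etfa and Hadh, also of mitochondrial oxidation, fell by 0.87, 0.87 and 0.65. The oxidation list had 5 higher and 6 lower with median-of-ratios factors, 6 higher and 8 lower after quantile normalization, 3 higher and 2 lower under a common total and 8 higher and 5 lower (median 0.041) under a common total that leaves small RNA genes out.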
